A study of Mus musculus with 35 samples.

Results

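The heat shock chaperones described here are 10 mouse genes: Hspa1a, Hspa1b, Hspa8, Hsph1, Hsp90aa1, Dnajb1, Hspb1, Hspd1, Hspe1 and Bag3. All array probes whose RefSeq identifier maps to one of these symbols were taken, over every array of the series. Of 55681 probes, 14 matched, and they covered 9 of the 10 genes. No probe matched Hspa1b. Hspa8 and Hspe1 had 3 probes each, Hsph1 had 2, and the other 6 genes had 1. The brightest probe of a gene carried its result, and for each of the 9 genes that probe lay above background on all 35 arrays. They are 9 of 15621 genes with a symbol that were tested.

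The arrays measured lung RNA in 7 groups of 5, from female C57BL/6 mice aged 5 to 7 weeks. A control group was recorded at 0 µg, and 6 groups had received 18 or 54 µg per animal of the code-named nanomaterials NRCWE-043, NRCWE-044 or NRCWE-045. Each material was given once, into the trachea, in 40 µl, and lungs were taken 24 h later. No genotype beyond the strain is given, nor what the controls received besides 0 µg, and whether each array of a group is its own mouse is not given either. The p-values therefore rest on the spread between samples, which may be partly technical. The series title gives the purpose as ranking how strongly the materials perturb lung pathways. Values are log2 ratios of lung RNA (Cy5) to a universal reference RNA from 11 mouse cell lines (Cy3), in the same orientation on every array. A log2 ratio of a probe is therefore set only against the same probe on other arrays, and a difference is a difference between group means on that scale. A smaller number of cells of a type and less RNA per cell cannot be told apart in such lung extracts.

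Between 42.8 and 69.3% of probes lay well above background on an array, and 29719 features (probes collapsed to genes where a symbol was known) were tested. Markers of alveolar type 2 cells, the surfactant-making cells of the lung, stood 5.23 to 6.33 above the reference on every array (mean log2 ratio of 7 markers). Mean log2 ratios of 10 heart muscle markers ran from -0.28 to 2.30 over the arrays and exceeded 1 on 9 arrays, and those of 7 adipose markers ran from 0.28 to 4.70 and exceeded 2 on 6 arrays. Without the arrays of either kind, each comparison that called 0 chaperones still called 0; the other results are given with and without them. The 7 slides held 3 to 8 arrays each.

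Heat shock chaperones bind unfolded or partly folded proteins and keep them from aggregating. HSP70 proteins work in a cycle with J-domain proteins, which start it, and nucleotide exchange factors, which reset it, while HSP90 receives clients from HSP70 and small heat shock proteins hold unfolded clients without using ATP. When proteins unfold, the transcription factor HSF1 is freed from chaperones, forms trimers and binds heat shock elements, which are inverted repeats of the 5-base unit NGAAN, in the promoters of many of these genes. Heat, oxidants and metals are classic triggers in lung cells, and body temperature and the circadian clock also move several of these transcripts.

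Promoter stretches with the letters of a heat shock element are shown because the genes differ in how many units they carry. The 250 bases before each RefSeq start (build GRCm38.p6) were searched for GAANNTTC and TTCNNGAA, both of which read the same on either strand and are 2 adjoining units; a run of 3 adjoining units contains both. The capitals mark the matched GAA and TTC triplets.
Hspa1a, chr17:34972227-34972286, minus strand: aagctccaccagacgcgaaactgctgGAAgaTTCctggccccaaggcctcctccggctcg
Hspa1b, chr17:34959309-34959368, minus strand: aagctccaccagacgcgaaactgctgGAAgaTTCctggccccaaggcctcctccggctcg
Hspb1, chr5:135887786-135887845, plus strand: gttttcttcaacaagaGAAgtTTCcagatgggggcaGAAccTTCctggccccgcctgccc
Hsph1, chr5:149636351-149636380, minus strand: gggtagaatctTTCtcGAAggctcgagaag
Hspe1, chr1:55088053-55088082, plus strand: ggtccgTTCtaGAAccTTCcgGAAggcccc

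The RefSeq promoter table held 8 of the 10 genes. 6 of these 8 (Hspa1a, Hspa1b, Hsph1, Hspb1, Hspd1 and Hspe1) held at least 1 pair of adjoining units, against 14.5% of the 27025 genes in the table. Hspe1 held 2 overlapping runs of 3 units, and so did Hspd1 before 1 of its starts, against 0.514% of the genes searched with such a run. The 2 genes share these runs: they lie head to head on chromosome 1, and the stretch printed for Hspe1 lies before a start of both. The window before another start of Hspd1 held no match. Hspa1a and Hspa1b were identical at 247 of the 250 bases before their starts (98.8%) and identical over the printed stretch. No match was found in the windows of Dnajb1 and Bag3, which says only that these letters are not in those bases. Among 17 other reported HSF1 targets, 4 of the 14 genes searched held a pair, and among 26 proteasome subunits 2 of 22 did. A match of letters is a description and not a measured binding site.

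Hspa1a (chr17:34969359-34972156) encodes the main stress-inducible cytosolic HSP70. Its probe was the dimmest of the 9, at a mean log2 intensity of 7.75 over both channels, and Hspa1b, whose protein is nearly the same, lies beside it on the chromosome, so how much of the signal is Hspa1b transcript was not tested. The 5 control arrays had log2 ratios of 0.99, 0.25, 1.19, 0.17 and 1.69. The 5 arrays of NRCWE-043 at 18 µg had 0.18, 0.20, 0.73, 0.80 and 0.94, and those of NRCWE-044 at 18 µg had 2.53, 1.19, 2.21, 1.58 and 1.15. The NRCWE-043 and NRCWE-044 arrays did not overlap at this dose, and both overlapped the controls. Group means at 54 µg were 1.19 ± 0.26 (SD, n = 5) for NRCWE-043, 1.12 ± 0.32 for NRCWE-044 and 1.61 ± 0.61 for NRCWE-045.

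Hspa8 (chr9:40801276-40805202) encodes the constitutive HSP70, which folds new proteins and uncoats clathrin vesicles. Its control arrays stood at 0.87, 0.32, 0.70, 0.05 and 1.08. NRCWE-043 at 18 µg gave 0.48, 0.10, 0.38, 0.19 and 0.10, and NRCWE-044 at 18 µg gave 0.87, 0.85, 1.25, 0.87 and 0.91. The lowest NRCWE-044 array thus lay above the highest NRCWE-043 array. Its other 2 probes had lower log2 ratios but the same order of these group means, -0.74 and -0.29 for NRCWE-043 and 0.12 and 0.68 for NRCWE-044. On the first of these probes the arrays overlapped, with an NRCWE-044 minimum of -0.45 and an NRCWE-043 maximum of -0.21.

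Hsph1 (chr5:149616843-149636498) encodes HSP110, a nucleotide exchange factor of HSP70 that helps to dissolve aggregates. Controls stood at 0.07, -0.50, 0.00, -0.67 and 0.83. The arrays of NRCWE-043 at 18 µg stood at 0.36, -0.31, -0.31, -0.43 and -0.87, and those of NRCWE-044 at 1.04, 0.60, 0.93, 0.57 and 0.54, without overlap. At 54 µg NRCWE-044 averaged 0.01 ± 0.24, below every one of its arrays at 18 µg.

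Hsp90aa1 (chr12:110691036-110696395) encodes the stress-inducible cytosolic HSP90, which matures kinases and steroid receptors. It stood at 0.33, -0.24, 0.09, -0.34 and 0.77 in controls, and at 0.56, 0.53, 0.72, 0.39 and 0.43 with NRCWE-044 at 18 µg. NRCWE-043 at 18 µg spread more widely, at 0.62, 0.12, -0.25, -0.39 and -0.36, and 1 of its arrays lay among those of NRCWE-044.

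Dnajb1 (chr8:83608175-83612653) encodes the inducible J-domain partner of HSP70. Controls stood at 0.51, 0.04, 0.56, 0.31 and 0.81. NRCWE-043 at 18 µg stood at -0.19, -0.04, 0.58, 0.41 and 0.08, and NRCWE-044 at 1.31, 0.49, 1.21, 0.71 and 0.96, so that the highest NRCWE-043 array lay just above the lowest NRCWE-044 array. NRCWE-045 at 54 µg reached the NRCWE-044 mean, at 0.94 ± 0.47 (SD, n = 5).

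Hspb1 (chr5:135887919-135889563) encodes HSP25/27, a small heat shock protein that also binds actin. It had the smallest adjusted p of the 9 in NRCWE-043 against NRCWE-044 at 18 µg, given below. The arrays of NRCWE-043 at 18 µg lay close together at 1.42, 1.22, 1.39, 1.54 and 1.37, and those of NRCWE-044 at 2.92, 2.17, 2.28, 2.52 and 2.08. Controls stood at 2.02, 1.56, 1.78, 1.62 and 2.89, all above all 5 NRCWE-043 arrays. Between these 2 groups 2.84% of all features did not overlap, and 1 of the 9 members. Bag3 (chr7:128523583-128546981), which encodes a co-chaperone that links HSP70 to small heat shock proteins and to autophagy, ranged over 1.19 between its lowest and highest array, and its group means lay between 0.35 and 0.76.

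Hspd1 (chr1:55077833-55088243) and Hspe1 (chr1:55088148-55091317) encode the mitochondrial chaperonin HSP60 and its co-chaperonin HSP10. Hspd1 stood between -1.54 and -1.49 in the 5 controls, an SD of 0.02, and between -1.71 and -0.87 with NRCWE-043 at 18 µg. Its 5 arrays of NRCWE-044 ran from -1.42 to -0.75 at 18 µg and from -1.22 to -0.98 at 54 µg, all above all controls. Of all features 0.946% and 6.03% did not overlap with control at these doses, and 1 of the 9 members at each. Hspe1 stood at -2.71, -2.73, -2.32, -2.04 and -2.34 with NRCWE-043 at 18 µg and at -2.15, -2.24, -1.98, -1.91 and -1.66 with NRCWE-044, so these groups overlapped. The dimmest Hspe1 probe lay above background on only 5 of 35 arrays and carries no result.

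**Figure D1:**
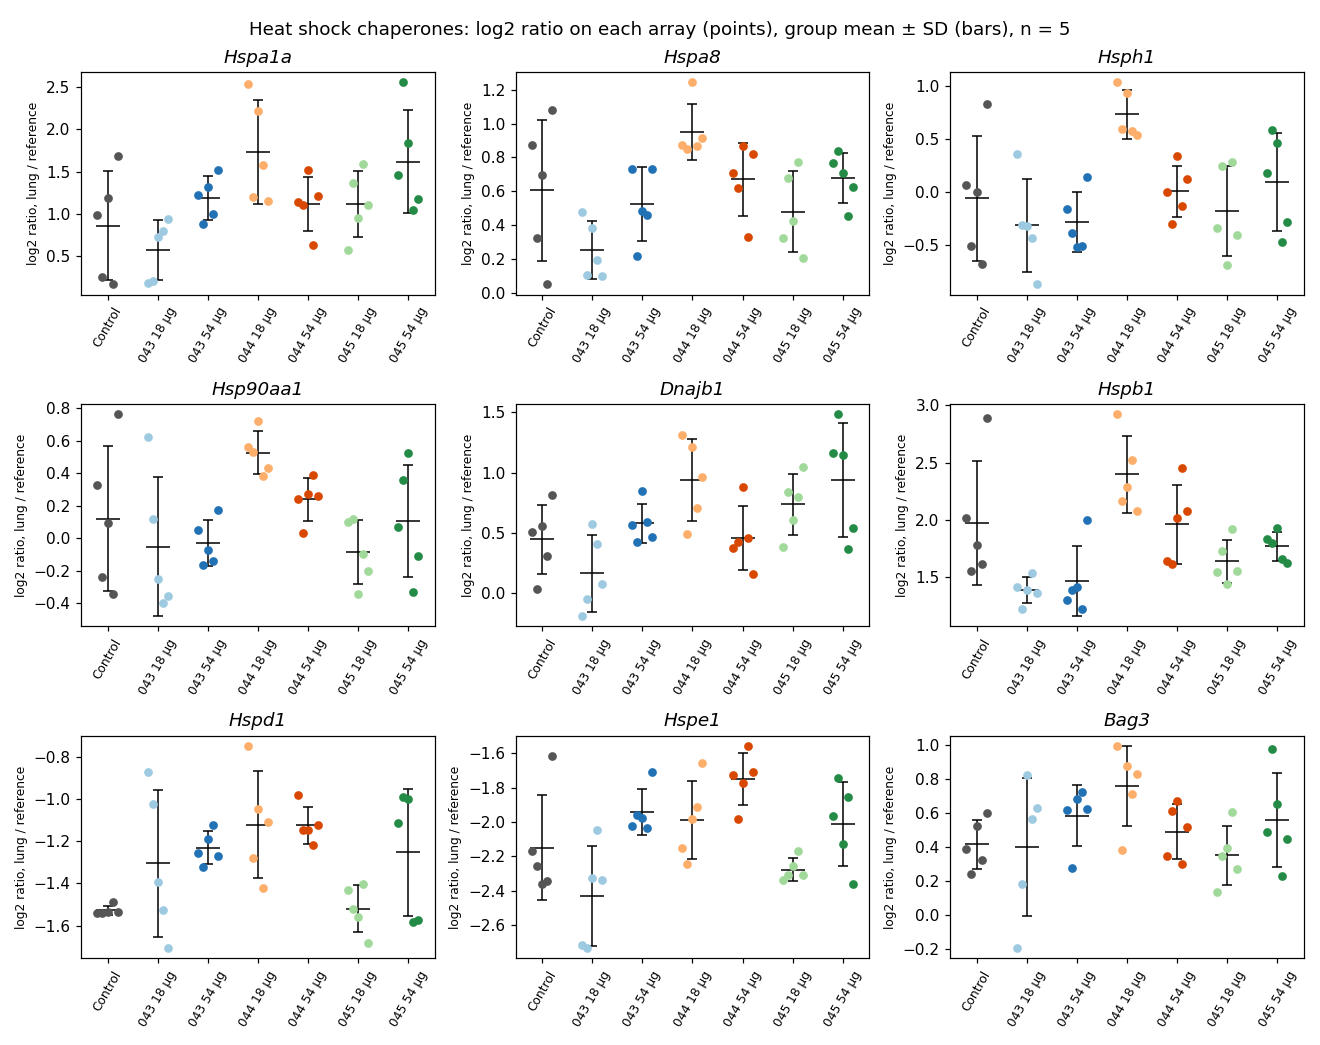
Log2 ratio of lung to reference RNA (vertical axis) of each of the 9 measured chaperone genes, with 1 point per array in the 7 groups (horizontal axis, numbers of the NRCWE materials with the dose); bars are group means and SD, n = 5. NRCWE-044 at 18 µg had the highest mean for Hspa1a, Hspa8, Hsph1, Hsp90aa1, Hspb1, Hspd1 and Bag3, and the control SD ran from 0.29 to 0.65 for 7 genes but was 0.02 for Hspd1 and 0.15 for Bag3.

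An F test of any difference between the 7 groups, from limma with Benjamini-Hochberg adjustment over 29719 features, called 20.9% of all features and 6 of the 9 chaperones. The adjusted p was 0.0015 for Hspb1, 0.0045 for Hspe1, 0.014 for Hsph1 and Dnajb1, 0.020 for Hspa8 and 0.024 for Hspa1a. In the same F test fitted by probe, the further probe of Hsph1 (adjusted p = 0.062) and 1 further probe of Hspa8 (0.068) missed the threshold. The other further probe of Hspa8 (0.018) and the second probe of Hspe1 (0.0069) passed. Hspd1 (adjusted p = 0.052), Hsp90aa1 (0.082) and Bag3 (0.29) were not called. Without the 9 arrays that carried heart muscle markers 3 members were called (13.2% of all features), and without the 6 with adipose markers 2 (13.8%); with the arrays median-centred in place of loess none of the 9 was called, while 1485 features were.

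The 6 comparisons with control asked whether lung chaperone transcripts differed 24 h after each material and dose, and 0 of the 9 members was called in any of them with limma at an adjusted p under 0.05. The share of all features called was 3.96% for NRCWE-043 at 18 µg, 9.15% at 54 µg, 0% for NRCWE-044 at 18 µg, 5.27% at 54 µg, 0% for NRCWE-045 at 18 µg and 0.259% at 54 µg. The counts of members at an unadjusted p under 0.05 were, in the same order, 3, 2, 8, 2, 0 and 3 of 9, where 18.6, 22, 10.7, 18.3, 2.87 and 8.77% of all features passed. These 6 comparisons share the same 5 control arrays.

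NRCWE-044 at 18 µg stood above control for all 9 members, with a median difference of 0.41 against -0.02 over all features. The difference was 0.87 (95% interval 0.30 to 1.45) for Hspa1a, 0.79 (0.31 to 1.27) for Hsph1, 0.49 (0.11 to 0.87) for Dnajb1 and 0.41 (0.14 to 0.67) for Hspd1. The lowest adjusted p among the 9 was 0.33. All 9 also stood above control without the arrays with heart muscle or adipose markers, with medians of 0.40 and 0.36, and Hspe1 was then at 0.01 and 0.10. At 54 µg the same material gave 0.26 for Hspa1a and 0.06 for Hsph1, and its largest differences were in the mitochondrial pair, 0.40 (SE 0.13, adjusted p = 0.065) for Hspd1 and 0.40 (SE 0.14, adjusted p = 0.083) for Hspe1. Without control replicate 30, Hspe1 was called there, at 0.53 with an adjusted p of 0.012 in limma. That replicate had the highest control value of Hspe1, so leaving it out widens the difference and the call carries no result. Hspd1 was called there without any 1 of 3 arrays that belong to neither group (adjusted p = 0.040 to 0.046), and with slide as a fixed block (adjusted p = 0.0080).

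NRCWE-043 at 18 µg differed from control by a median of -0.28 over the 9 members, and only Hspd1 stood above control. Hspb1 had the largest difference, -0.58 (SE 0.19, adjusted p = 0.073), followed by Hspa8 at -0.35 (SE 0.15, adjusted p = 0.18). At 54 µg Hspb1 differed by -0.50 (SE 0.19, adjusted p = 0.091), while 5 members stood above control, among them Hspa1a, Dnajb1 and Hspd1 by 0.33, 0.13 and 0.29. Leaving out single arrays moved some of these across the threshold in limma: without control replicate 7, Hspb1 was called at 18 µg (adjusted p = 0.026) and at 54 µg (adjusted p = 0.039). Without control replicate 29, Hspa8 was called at 18 µg (adjusted p = 0.046), and without NRCWE-043 replicate 22, Hspb1 was called at 54 µg (adjusted p = 0.033). Control replicate 7 had the lowest control value of Hspb1, and control replicate 29 that of Hspa8. NRCWE-043 replicate 22 had the highest Hspb1 value of its group. Leaving these arrays out widens the differences, so the calls gained carry no result. With NRCWE-045 the widest difference at 18 µg was -0.33 for Hspb1, and at 54 µg it was 0.76 (SE 0.28, adjusted p = 0.32) for Hspa1a.

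The control arrays themselves spread over a wide range in most of the chaperones. Control replicate 30 lay above the 35-array median for 8 of the 9 members, replicates 2 and 15 for 4 each, and replicates 7 and 29 for 0. The same arrays differed in Dbp, an output gene of the circadian clock: its log2 ratio was -2.67 in replicate 30, -1.96 in replicate 2, 0.79 in replicate 15, 2.56 in replicate 7 and 2.71 in replicate 29. Within the controls the order of Hspa8 was thus the reverse of the order of Dbp.

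The NRCWE-045 arrays also differed among themselves. At 54 µg, replicates 8, 14 and 28 lay above the 35-array median for 7, 9 and 8 of the 9 members, and replicates 32 and 35 for 1 each. Dbp stood at 0.16, -0.34 and 0.35 on the former and at 1.63 and 1.27 on the latter. At 18 µg, replicates 12 and 25 lay above the median for 5 and 6 members, and replicates 1, 13 and 27 for 0, 1 and 1, with Dbp at -0.19 and -0.48 against 1.19, 0.68 and 1.22. In both groups the arrays with more members above the median were thus those with less Dbp. The relation did not extend to NRCWE-044 at 54 µg, where Dbp lay at -1.87 or below on all 5 arrays while 3 to 9 members lay above the median.

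**Figure D2:**
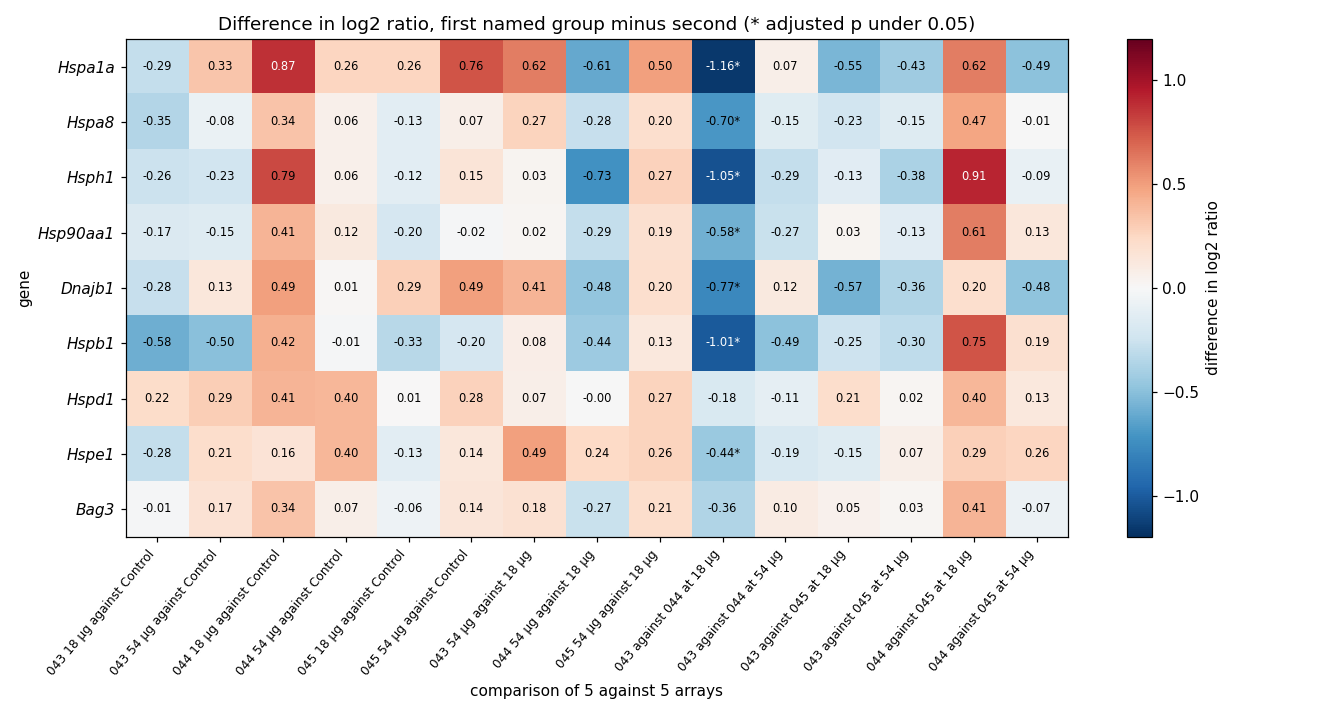
Differences in log2 ratio (colour and printed value) of the 9 members (rows) in the 15 comparisons (columns, first named group minus second, 5 arrays against 5); a star marks an adjusted p under 0.05. All 7 stars are in the comparison of NRCWE-043 with NRCWE-044 at 18 µg, where the values run from -1.16 to -0.18.

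The materials were compared with each other at matched doses, 6 comparisons in all. NRCWE-043 against NRCWE-044 at 18 µg called 7 of the 9 members, all lower with NRCWE-043, where 10.5% of all features were called in either direction and 5.32% as lower. Among members of the cytosolic HSP70 system, Hspa1a differed by -1.16 (SE 0.28, adjusted p = 0.0064), which is 2.24-fold lower, Hsph1 by -1.05 (SE 0.24, adjusted p = 0.0034), Dnajb1 by -0.77 (SE 0.19, adjusted p = 0.0064) and Hspa8 by -0.70 (SE 0.15, adjusted p = 0.0017). Hspb1 was 2.01-fold lower (-1.01, SE 0.19, adjusted p = 0.00046). Hsp90aa1 (-0.58, SE 0.18, adjusted p = 0.030) and Hspe1 (-0.44, SE 0.14, adjusted p = 0.032) were called closer to the threshold. Bag3 (-0.36, adjusted p = 0.12) and Hspd1 (-0.18, adjusted p = 0.42) were not called, with 95% intervals of -0.66 to -0.06 and -0.45 to 0.08. The 5 arrays of the groups did not overlap for 4 of the 9 members (Hspa1a, Hspa8, Hsph1 and Hspb1), against 6.53% of all features. The further probes of Hspa8, fitted one by one, were also lower (-0.86 and -0.97, adjusted p = 0.027 and 0.0019), as was that of Hsph1 (-0.85, adjusted p = 0.012), while the second Hspe1 probe missed the threshold (-0.33, adjusted p = 0.071).

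These calls depend on the normalization within arrays. With median centring in place of loess 0 of the 9 members was called and 696 features in all, with differences of -1.06 for Hspa1a, -0.75 for Hsph1, -0.65 for Hspb1, -0.46 for Dnajb1, -0.42 for Hspa8, -0.29 for Hsp90aa1 and -0.16 for Hspe1. Scale normalization, which brought the arrays to a common median, multiplied their log2 ratios by factors of 0.256 to 8.26. It called 0 features and turned Hspe1 to 1.05 (adjusted p = 0.88 in limma). Factors this far apart change the size of every difference, so this setting carries no result about the members. The Cy5 channel alone called 4 members, with Hspa8 at -0.14, and 2487 of 29719 features. The authors' deposited log2 ratios and a fit of only the groups compared each called 5 members, without Hsp90aa1 and Hspe1, where 3101 and 1391 features were called. Array weights called 5, without Dnajb1 (-0.53, adjusted p = 0.067) and Hspe1, where 3620 features were called. On the 4 slides that held both groups, the difference was negative on all 4 for Hspa1a (-2.34 to -0.57), Hspb1 (-1.50 to -0.76), Hsph1 (-1.24 to -0.68), Dnajb1, Hspa8, Hspe1 and Bag3, and on 3 of 4 for Hsp90aa1 and Hspd1. Each of these slides held 1 array of NRCWE-043 and 1 or 2 of NRCWE-044. They are the same arrays as in the test, so the slides are not separate evidence. Leaving out each array in turn kept 5 to 7 members called. Hspa1a, Hspa8, Hsph1, Dnajb1 and Hspb1 passed each time. Hsp90aa1 missed the threshold without NRCWE-043 replicate 20, 26 or 33 or NRCWE-044 replicate 11 or 17 (adjusted p = 0.051 to 0.089), and Hspe1 without NRCWE-043 replicate 5 or 10 or NRCWE-044 replicate 17, 21 or 23 (adjusted p = 0.054 to 0.11). Bag3 passed without NRCWE-043 replicate 20 (adjusted p = 0.047 in limma), where its difference itself widened to -0.46.

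**Figure D3:**
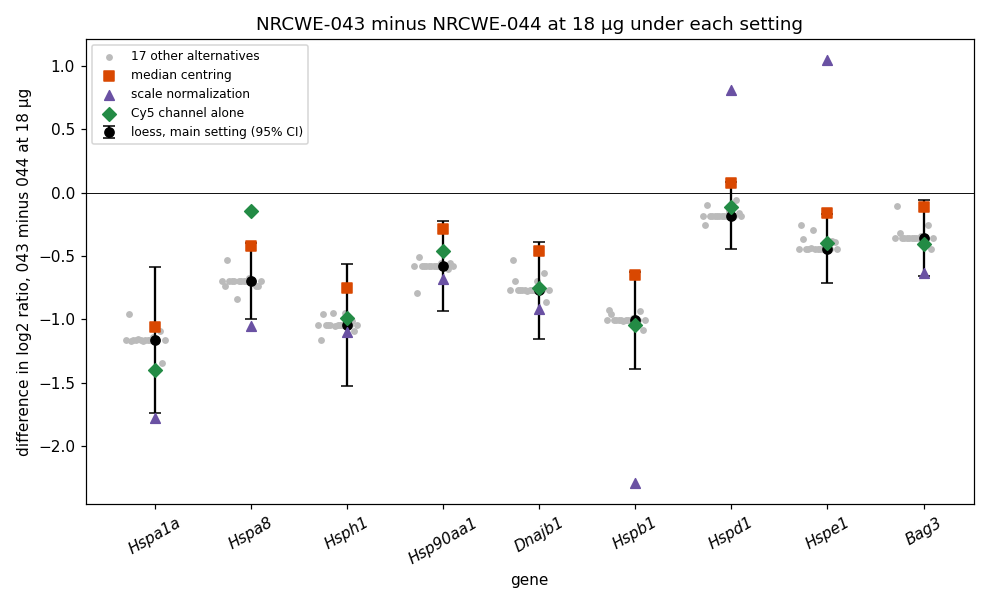
Difference in log2 ratio between NRCWE-043 and NRCWE-044 at 18 µg (vertical axis) for each member (horizontal axis), with the reported value and its 95% interval in black and the values under 20 other settings as coloured or grey symbols. Hspa1a, Hspa8, Hsph1, Hsp90aa1, Dnajb1, Hspb1 and Bag3 lay below 0 under every setting drawn. Hspe1 lay above 0 with scale normalization only, and Hspd1 with scale normalization and median centring.

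NRCWE-044 also stood above NRCWE-045 at 18 µg for all 9 members, but 0 was called, where 0.323% of all features were. The differences were 0.91 (SE 0.24, adjusted p = 0.088) for Hsph1, 0.75 (SE 0.19, adjusted p = 0.071) for Hspb1 and 0.61 (SE 0.18, adjusted p = 0.12) for Hsp90aa1. 8 of 9 had an unadjusted p under 0.05, where 12.7% of all features did, and the groups did not overlap for 4 of 9 (Hspa8, Hsph1, Hsp90aa1 and Hspb1), against 2.25% of all features. Without control replicate 30, which belongs to neither group but enters the shared variance, limma called both Hsph1 (adjusted p = 0.045) and Hspb1 (adjusted p = 0.015). Without the arrays with heart muscle or adipose markers all 9 still stood higher with NRCWE-044, with medians of 0.47 and 0.51 against 0.47, and the lowest adjusted p was 0.19 and 0.32. This comparison shares the NRCWE-044 arrays with the one before it.

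NRCWE-043 against NRCWE-045 at 18 µg called 0 of 9 members and 8.37% of all features (1 member and 22.5% of features at an unadjusted p under 0.05). Dnajb1 came closest, at -0.57 (SE 0.19, adjusted p = 0.055), and passed in limma without any 1 of 9 arrays, NRCWE-043 replicates 20 and 26, NRCWE-045 replicates 1, 14 and 32, NRCWE-044 replicates 6, 11 and 24 or control replicate 7 (adjusted p = 0.026 to 0.049). Leaving out NRCWE-043 replicate 20 or 26 or NRCWE-045 replicate 1 widened the difference itself, to -0.67, -0.63 and -0.66. At 54 µg the 3 comparisons between materials called 0 of 9 members each, where 7.79% of all features were called for NRCWE-043 against NRCWE-044, 5.44% for NRCWE-043 against NRCWE-045 and 0% for NRCWE-044 against NRCWE-045. At an unadjusted p under 0.05 the counts were 1, 0 and 1, where 18.7, 15.8 and 5.78% of all features passed. For Hspa1a the difference between NRCWE-043 and NRCWE-044, -1.16 at 18 µg, was 0.07 (95% interval -0.51 to 0.65) at 54 µg. Hspb1 kept the sign, at -0.49 (SE 0.19, adjusted p = 0.12), and was called without control replicate 30 (adjusted p = 0.040) or without NRCWE-043 replicate 22 (-0.63, adjusted p = 0.041). Replicate 22 had the highest Hspb1 value of its group, so leaving it out widens that difference.

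The dose steps, 54 against 18 µg, gave 0 called members with limma for each material, and 3, 4 and 1 members at an unadjusted p under 0.05 for NRCWE-043, NRCWE-044 and NRCWE-045, where 13.9, 18.7 and 3.57% of all features passed. All 9 members stood higher at 54 µg of NRCWE-043, by 0.62 for Hspa1a, 0.49 (SE 0.14, adjusted p = 0.070) for Hspe1 and 0.41 for Dnajb1, where 0.912% of all features were called. Hspe1 was called with slide as a fixed block (0.48, adjusted p = 0.023), without control replicate 30 (adjusted p = 0.044) and without NRCWE-043 replicate 26 (0.59, adjusted p = 0.030). Replicate 26 had the highest Hspe1 value of its group, so leaving it out widens that difference. All 9 also stood higher at 54 µg of NRCWE-045, with a median of 0.21, where 0% were called. With NRCWE-044, 8 of 9 stood lower at 54 µg, by -0.73 (SE 0.24, adjusted p = 0.067) for Hsph1, -0.61 for Hspa1a and -0.48 for Dnajb1, where 5.54% of all features were called; Hspe1 stood higher, by 0.24. Hsph1 was called there without control replicate 30 (adjusted p = 0.039) or NRCWE-043 replicate 5 (adjusted p = 0.048). The difference between the dose steps of NRCWE-043 and NRCWE-044, tested as an interaction, was 1.23 (SE 0.40) for Hspa1a and 0.89 (SE 0.27) for Dnajb1. The adjusted p was 0.999 for both in limma, where 0 of 29719 features was called, and the unadjusted p was 0.0043 and 0.0020.

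Within groups the members varied together to different degrees. Pearson correlations of deviations from the group means over the 35 arrays, which share array and slide effects, are given as descriptions. Hsph1 followed Hsp90aa1 (r = 0.86) and Hspa8 (0.79), and Hspb1 followed Hsph1 (0.65). Hspa1a, Dnajb1 and Bag3, which belong to the strongly inducible set, gave 0.75 for each of their 3 pairs. Hspa1a also followed Hspa8 (0.66) and Hsph1 (0.64), as closely as Hspa8 followed Hsp90aa1 (0.64). Hspd1 gave 0.59 with Hsp90aa1 and 0.56 with Hsph1. Bag3 and Hsp90aa1 gave -0.07. Hspd1 and Hspe1, which share 1 promoter region and whose proteins form 1 complex, gave -0.23.

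**Figure D4:**
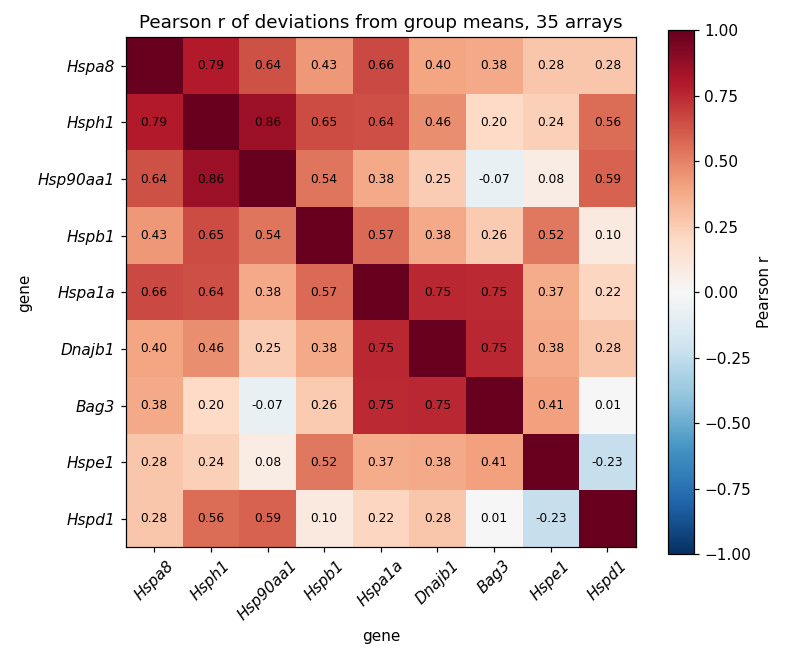
Pearson correlation (colour and printed value) between the 9 members of their deviations from the group means over 35 arrays. Pairs of Hspa8, Hsph1 and Hsp90aa1 have values of 0.64 to 0.86 and pairs of Hspa1a, Dnajb1 and Bag3 stand at 0.75, Hspa1a has 0.66 and 0.64 with Hspa8 and Hsph1, and Hspd1 with Hspe1 stands at -0.23.

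The 3 genes outside the members most alike each member were taken by the same correlation over 15298 genes with a symbol and no missing value; some members correlated with each other more highly than with these. For Hsph1 they were Ahsa1, an activator of the HSP90 ATPase (r = 0.86), Chordc1, an HSP90 co-chaperone (0.85), and Dnaja1, a J-domain partner of HSP70 (0.77). Ahsa1 (0.81) and Dnaja1 (0.70) were also among those of Hspa8, beside the clock-linked repressor Nfil3 (0.73). Hsp90aa1 had H2bc4 (0.77), the constitutive HSP90 gene Hsp90ab1 (0.76) and Ahsa1 (0.71). Hspa1a had Cacybp (0.73), Rab1a (0.70) and the small heat shock protein gene Hspb8 (0.66), and Dnajb1 had Dedd2 (0.69), Hnrnpll (0.68) and Dnaja1 (0.66). The lists of the other members held no chaperone: Proser2 (0.82), Clip1 and Cdkn1a for Hspb1, Abtb2 (0.85), Tfg and Nxn for Bag3, Rbm8a (0.83), Tomm5 and Ormdl2 for Hspd1, and Maged1 (0.81), Morf4l2 and Chp1 for Hspe1.

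Other genes of the pathway were read in NRCWE-043 against NRCWE-044 at 18 µg, the comparison that called members. There 5.32% of all features fell and 5.15% rose. The lists were read with loess only, and with median centring 0 of the 9 members was called. Of 17 other reported HSF1 targets, 6 fell and 0 rose with NRCWE-043: Dnaja1 (-0.63, adjusted p = 0.013), Ahsa1 (-0.41, adjusted p = 0.015), Cacybp (-0.63, adjusted p = 0.020), Stip1, which joins HSP70 to HSP90 (-0.57, adjusted p = 0.021), Hspa4l and Hsp90ab1. The median of the 17 was -0.24, against 0.02 over all features. Of 17 co-chaperones 4 fell, 3 of them (Ahsa1, Cacybp and Stip1) already counted, with Cdc37, the kinase adaptor of HSP90 (-0.29, adjusted p = 0.035). Of 10 other J-domain genes 2 fell, Dnaja1 and Dnaja4 (-0.77, adjusted p = 0.0025), and Dnajc7 rose (0.96, adjusted p = 9.3e-05).

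Few genes of other folding compartments were called in the same comparison, where 10.5% of all features were called. None of 8 subunits of the cytosolic chaperonin, none of 26 proteasome subunits and none of 7 other small heat shock proteins was called in either direction with limma (2, 4 and 0 at an unadjusted p under 0.05, where 24% of all features passed), with medians of -0.18, 0.04 and -0.14. Of 14 ER chaperones 1 rose, Canx (0.32, adjusted p = 0.049), and Hspa5, the HSP70 of the ER, stood at 0.39 (adjusted p = 0.29). Of 10 genes of mitochondrial proteostasis 1 rose, Hspa9, the mitochondrial HSP70 (0.54, adjusted p = 0.012). Hsf1 itself stood at -0.35 (adjusted p = 0.088) and Cryab, a small heat shock protein, at -0.05 (adjusted p = 0.87). Both cold-inducible RNA-binding proteins, which are made more at lower temperature, rose with NRCWE-043: Rbm3 by 0.75 (SE 0.17, adjusted p = 0.0029) and Cirbp by 0.54 (SE 0.17, adjusted p = 0.037). Cirbp had the most negative within-group correlation with Hspa8 of all genes (r = -0.77 over 35 arrays), and Rbm3 gave -0.40. With the other members Cirbp ran from -0.66 (Hsph1) to -0.18 (Dnajb1), and Rbm3 from -0.39 (Hspb1) to 0.40 (Hspd1). Rbm3 had its highest group mean, -0.48, with NRCWE-045 at 54 µg, where Hspa1a and Dnajb1 averaged 1.61 and 0.94. A link between these 2 genes and the members was not tested.

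ER chaperones were also called in comparisons that called no member. With NRCWE-043 at 54 µg against control 10 of 14 ER chaperones rose and 0 of 9 members were called. Of all features 4.69% rose there and 9.15% were called in either direction. With NRCWE-044 at 54 µg the counts were 10 of 14 and 0 of 9, and the shares of all features 3.44 and 5.27%. Between doses of NRCWE-044, 11 of 14 ER chaperones rose, where 4.13% of all features rose and 5.54% were called. A count of 0 of 9 members is near these shares of all features called. Whether the members differ from the ER chaperones in their response was not tested.

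Clock genes and lymphocyte markers moved with the comparison that called the members, where 5.15% of all features rose and 5.32% fell. Of 15 clock genes 6 rose and 2 fell with NRCWE-043 against NRCWE-044 at 18 µg, and the groups did not overlap for Dbp: its arrays ran from 1.63 to 2.58 with NRCWE-043 and from -2.72 to -2.00 with NRCWE-044, a difference of 4.53 (SE 0.63, adjusted p = 8.9e-06). Nr1d1, a clock repressor, rose by 3.72 (adjusted p = 7.8e-07) and Nfil3, a repressor that opposes Dbp, fell by 1.82 (adjusted p = 2.3e-06). At 54 µg Dbp ran from 0.89 to 1.92 with NRCWE-043 and from -2.88 to -1.87 with NRCWE-044, and 0 of 9 members was called. Of 7 lymphocyte markers 3 rose, Cd3d, Gzma and Ms4a1, with mean log2 ratios of the 7 at 1.23 to 1.80 on the NRCWE-043 arrays and 0.66 to 0.89 on the NRCWE-044 arrays. The means of the adipose list were 0.59 to 1.76 and 0.98 to 2.52 in the same groups and those of the heart list -0.10 to 1.66 and -0.14 to 2.24, with 0 of 7 and 0 of 10 called; without the arrays above the stated marker levels 4 members (adipose) and 5 members (heart) were called, where 9.3 and 7.15% of all features were. The part of these genes and cells in the result was not tested. Between NRCWE-043 and NRCWE-044 the state of the clock genes and the material cannot be told apart at 18 or at 54 µg.

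**Figure D5:**
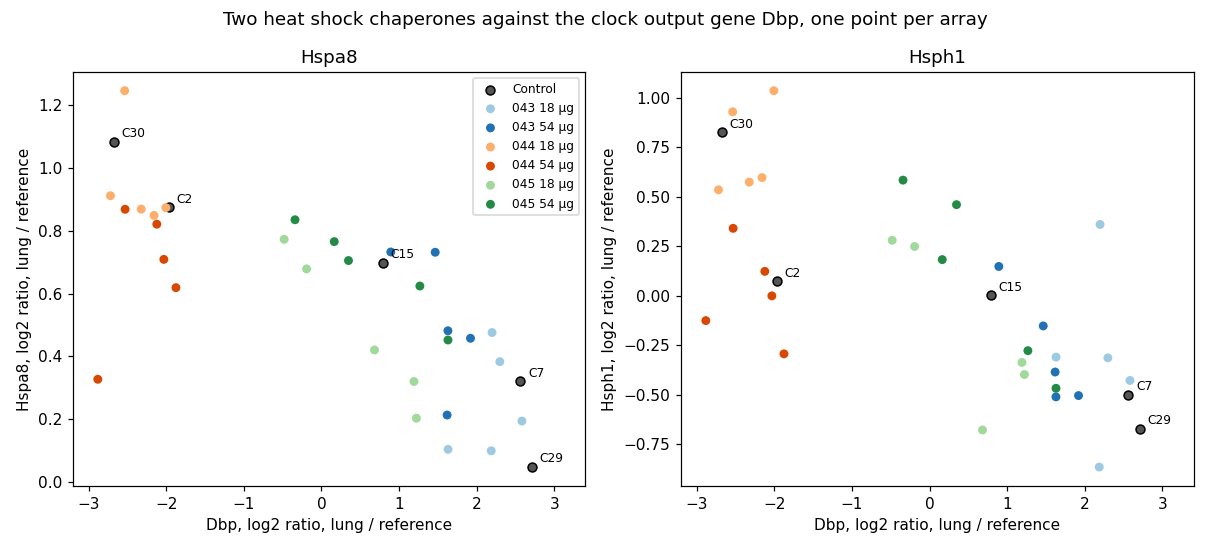
Log2 ratios of Hspa8 (left) and Hsph1 (right) on the vertical axis against that of the clock output gene Dbp on the horizontal axis, 1 point per array coloured by group, with control arrays marked C and their replicate number. Arrays of NRCWE-044 lie at Dbp values of -1.87 and below, those of NRCWE-043 at 0.89 and above, and the 5 controls are spread over -2.67 to 2.71.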

How the data were processed

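Lung RNA (200 ng, Cy5) was hybridised against universal mouse reference RNA (Cy3) on 35 Agilent 2-colour arrays. The scanner files deposited by the authors hold spot intensities, extracted with Agilent Feature Extraction 11.0.1.1 per the file headers. The authors also deposited log2 ratios, made by steps that the sources do not name; these served as an alternative and correlated at 0.995 to 0.999 per array with the values used here.

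Median intensities were corrected with normexp (offset 50) and loess-normalized in limma 3.58.1 under R 4.3.3 (with data.table, version 1.17.8); control spots had weight 0 and marked spots were dropped. Probes had to be well above background on at least 3 of 5 arrays of a group. Symbols came from RefSeq identifiers (27235 of 55681 probes), each gene was represented by its brightest probe, and 28446 probes without a symbol stayed as features where they passed. Linear models over 35 arrays gave 15 comparisons and an F test, with Benjamini-Hochberg adjustment over 29719 features and calls at an adjusted p under 0.05. With 5 arrays in each group, their number sets how precise a value is. The fit was tested on simulated data. Genes named are the members, up to 4 called genes per list with the smallest p, 5 fixed genes (Hsf1, Cirbp, Rbm3, Cryab and Hspa5) and the 3 genes most alike each member; Dbp outside the comparison that called members was singled out after its values were seen. Members and lists were chosen with earlier results of these data known. Promoter sequences are from RefSeq, GRCm38.p6. Alternatives changed the normalization, background, filter, probe summary, marked spots, slide, arrays in the fit, variance model and array weights, and left out each array.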

Additional observations from a re-analysis of the deposited data

Results flagged for a closer look

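In 63 sets of 5 arrays (9 members in 7 groups), an array whose gap to its nearest neighbour exceeds the 95% critical value of Dixon's test was looked for, and 6 were found, where chance gives about 1 in 20. Hspa8 stood at 1.25 on NRCWE-044 replicate 17 at 18 µg, above 0.85 to 0.91 on the other 4 arrays. NRCWE-043 replicate 22 at 54 µg was high for both Hspb1, at 2.0, and Hspe1, at -1.71, and replicate 9 of the same group was low for Bag3, at 0.28. Control replicate 30 was high for Hspe1, at -1.62. Control replicate 29 stood apart for Hspd1, at -1.49, but only because the other 4 controls lay within -1.54 and -1.53. No difference between dose steps was called for any member, and 0 of all 29719 features was called either.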

How the results depend on the processing

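Of 7425 differences of single members recomputed under alternatives, 7337 kept their direction and side of the threshold or stayed uncalled, 37 lost a call, 50 gained one and 1 called value changed sign (Hspe1, 1.05 under scale normalization, NRCWE-043 against NRCWE-044 at 18 µg); 193 uncalled values changed sign. For that comparison the 7 called members became 0 with median centring (696 of 29719 features called against 3114). They became 0 with scale normalization (0 features called), where the arrays were multiplied by factors of 0.256 to 8.26 to reach a common median. That setting carries no result about the members. They became 4 with Cy5 alone (2487 features), 4 without arrays with adipose markers (2763 features), and 5 to 7 without single arrays. The 6 members called in the F test became 0, 0, 3 and 2 with median centring, with scale normalization and without the arrays with heart or adipose markers, and 5 to 7 without single arrays. The cause of these changes was not tested. Feature counts called in the F test were 1485, 0, 3936 and 4099 there, against 6218.

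Comparisons with 0 called members gained some under other settings. The count of all features called moved with the setting too. In NRCWE-043 against NRCWE-044 at 18 µg it was 1391 with only the groups compared, 4260 with slide as a random block and 3620 with array weights, against 3114. For the comparisons below that count is not given here, so the gains are not read as a result about the members. Without control replicates 7 and 29 there were 2 for NRCWE-043 at 18 µg and 1 at 54 µg against control. Both replicates had 0 of 9 members above the median of all arrays, and they held the lowest control values of Hspa8 and Hspb1. Leaving them out raises the control means of these genes. The calls gained against control (Hspa8 -0.63 and Hspb1 -0.84 at 18 µg, Hspb1 -0.76 at 54 µg) therefore rest on that choice and carry no result. The same setting gave 1 for the NRCWE-044 dose step, 1 for NRCWE-043 against NRCWE-045 at 18 µg and 2 for NRCWE-044 against NRCWE-045 at 18 µg. Fitting only the groups compared gave 1 called member for NRCWE-043 and 1 for NRCWE-044 at 54 µg against control and 1 for the NRCWE-044 dose step. Slide as a fixed block gave 1 for NRCWE-044 at 54 µg against control and 1 for the NRCWE-043 dose step, as did slide as a random block, which also gave 1 for NRCWE-043 and 1 for NRCWE-044 against NRCWE-045 at 18 µg. Cy5 alone gave 1, the filter on all arrays 1 and array weights 2 for NRCWE-044 at 54 µg against control; the filter and array weights gave 1 each for the NRCWE-044 dose step, and Cy5 alone and the filter 1 each for NRCWE-044 against NRCWE-045 at 18 µg. Leaving out single arrays gave 0 to 1 or 0 to 2 called members in these comparisons and 0 to 1 for NRCWE-043 against NRCWE-044 at 54 µg. With median centring the median difference of all features was 0.12 in the NRCWE-043 dose step, 0.10 in the NRCWE-045 dose step and 0.15 in NRCWE-043 against NRCWE-044 at 54 µg. The arrays with heart or adipose markers and the collapsing of unnamed probes were added after seeing the data. No paired analysis was possible by replicate number because each number belongs to 1 array and groups share none; the slide, which groups do share, was fitted as a block.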
